A study of Mus musculus with 6 samples.

Results

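A group of 7 mouse miRNAs with known roles at synapses or in the response of neurons to activity was followed through small RNA libraries of extracellular vesicles (EVs): mmu-miR-129-5p, mmu-miR-132-3p, mmu-miR-212-3p, mmu-miR-138-5p, mmu-miR-218-5p, mmu-miR-153-3p and mmu-miR-135a-5p, written below without the species prefix. They were taken by name from the mature miRNA rows of the count table, and all 7 were found among its 902 mature rows. The libraries came from primary cells of CD1 mice: 3 from EVs of cortical astrocytes and 3 from EVs of subventricular zone (SVZ) neural stem cells (NSCs), which the sample titles call neonatal. No agent or genetic change separated the groups, and cell type, brain region and culture history changed together. For the astrocytes, the study's methods describe dorsal cortices of pups at postnatal day 4 and shaking of the cultures to take off microglia and then oligodendrocyte lineage cells, so that the astrocyte population was enriched rather than sorted. The labels do not say whether libraries of a group came from separate animals or cultures, and p-values here measure only the spread between these libraries.

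A miRNA guides Argonaute proteins to mRNAs that pair with its seed, which lowers their translation or stability. Each hairpin precursor yields a 5p and a 3p arm, and usually a single arm is kept in quantity. In neurons, the miRNAs described here act on dendritic spines, ion channels, transmitter release and the transcriptional response to firing. EVs carry small RNAs out of cells, so a level measured in EVs reflects both what the cells hold and what is released. In such bulk libraries, fewer vesicles from a cell type and less miRNA per vesicle cannot be told apart.

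The mature sequences are printed here because 2 of the miRNAs share a seed and 4 have a second, identical genomic copy. Each is written 5′ to 3′ from RefSeq on GRCm38.p6 (the assembly also called mm10), with the seed, bases 2 to 8, in capitals.
miR-218-5p: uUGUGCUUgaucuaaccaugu
miR-129-5p: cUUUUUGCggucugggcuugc
miR-132-3p: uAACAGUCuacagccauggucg
miR-212-3p: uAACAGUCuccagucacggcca
miR-138-5p: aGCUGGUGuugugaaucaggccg
miR-153-3p: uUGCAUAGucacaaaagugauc
miR-135a-5p: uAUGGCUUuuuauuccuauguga
Only miR-132-3p and miR-212-3p had the same seed. Over their length they were identical at 17 of 22 positions and differed by A10C, C14U, U17C, U20C and G22A, written as the miR-132-3p base, the position from 1 at the 5′ end, and the miR-212-3p base. The mature sequences of miR-129-5p, miR-138-5p, miR-218-5p and miR-135a-5p each lie at 2 loci, so their counts cannot be split between precursors.

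The 7 miRNAs came from 11 loci, whose surroundings were read from the GENCODE annotation of the same assembly. Both miR-218-5p copies lie in introns of axon guidance genes, at chr5:48223966-48223986 (+) in Slit2 and at chr11:35616840-35616860 (+) in Slit3. The copies of miR-129-5p lie at chr2:94241419-94241439 (-), in an intron of the noncoding Mir670hg, and at chr6:29022624-29022644 (+), in an exon of the noncoding Gm3294. miR-212-3p (chr11:75173443-75173464, +) and miR-132-3p (chr11:75173723-75173744, +) start 280 bp apart in an intron of 1700016P03Rik. The copies of miR-138-5p lie in exons, at chr8:94324312-94324334 (+) in the noncoding C78859 and at chr9:122682898-122682920 (+) in Gm47135, annotated as a transcribed pseudogene. miR-153-3p lies in an intron of Ptprn2, which codes for a protein of dense-core vesicles, at chr12:117250860-117250881 (+). The miR-135a-5p copies lie at chr9:106154140-106154162 (+), in an intron of D030055H07Rik and across an exon of Glyctk on the other strand, and at chr10:92072141-92072163 (-), in an intron of the neural noncoding gene Rmst.

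Mature miRNA counts came to between 182075 and 399211 in astrocyte EV libraries and between 177093 and 259560 in NSC EV libraries, which was 0.212% to 0.538% of all annotated counts in a library. Levels are given as counts per 1000000 mature miRNA counts after scaling by edgeR's TMM factors (CPM), which set libraries on a common scale by trimmed means of their ratios. On this scale 3 counts, used as the floor for a count of 0, were worth 9.44 to 18.6 CPM. Intervals and floors cover counting error only. mRNA-annotated rows of 10 genes that mark astrocytes or NSCs had counts in all 6 libraries, markers of both cell types in both EV types, so they do not check the labels. Gfap had 89, 107 and 451 counts in astrocyte EVs, against 33, 51 and 31 in NSC EVs, while the astrocyte gene Slc1a3 had 116, 179 and 585 counts in astrocyte EVs, against 184, 930 and 204 in NSC EVs, whose libraries held fewer counts in all. Astrocyte EV replicate 3 stood apart from the other astrocyte EV libraries: 26 of 256 tested miRNAs lay more than 3 log2 units from the mean of the other 2, against 10 for replicate 1 and 9 for replicate 2, and between 0 and 5 in NSC EV libraries. Results that rest on this library are given with and without it.

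The 7 miRNAs were minor components of both EV types. Together they made up 0.103%, 0.0917% and 0.297% of mature counts in astrocyte EVs, against 0.312%, 0.293% and 0.202% in NSC EVs. Astrocyte EVs averaged 0.164% ± 0.115 and NSC EVs 0.269% ± 0.0588 (SD, n = 3 each), and the groups overlapped through astrocyte EV replicate 3, where miR-129-5p alone gave 85.0% of the summed counts. Without miR-129-5p astrocyte EVs averaged 0.0737% ± 0.0254, against 0.178% ± 0.0427 for NSC EVs, with no overlap between libraries. This sum leaves out the miRNA that made the groups overlap, a choice made after its values were seen. Taken singly, 36.3% of tested miRNAs also had all astrocyte EV libraries below all NSC EV libraries. Of the 7, 4 or 5 had any count in each astrocyte EV library, against 6 or 7 in each NSC EV library.

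**Figure D1:**
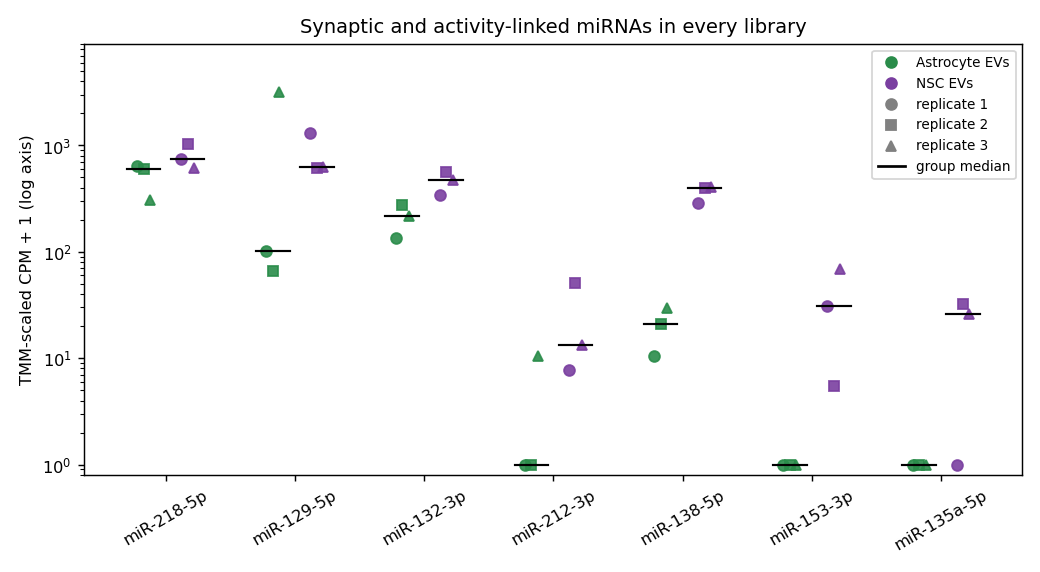
TMM-scaled CPM plus 1 (log axis) of each miRNA in each library, astrocyte EVs in green and NSC EVs in purple, with marker shapes for replicates and a bar at the group median. miR-138-5p, miR-132-3p and miR-153-3p show astrocyte EV libraries below all NSC EV libraries, as 36.3% of tested miRNAs did. Of these, miR-153-3p was not tested, had no counts in astrocyte EVs and lay under the floor in 1 NSC EV library. miR-129-5p spans 65.5 to 3169 CPM within astrocyte EVs.

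By median level, the order in astrocyte EVs was miR-218-5p, miR-132-3p, miR-129-5p, miR-138-5p, miR-212-3p, and then miR-153-3p and miR-135a-5p at 0. The ranges of miR-132-3p and miR-129-5p overlapped there, while miR-218-5p lay above miR-132-3p, and miR-138-5p lay below miR-129-5p, in every library. In NSC EVs the order was miR-218-5p, miR-129-5p, miR-132-3p, miR-138-5p, miR-153-3p, miR-135a-5p and miR-212-3p. There, the ranges of miR-218-5p and miR-129-5p overlapped, and neither was higher in every library. The ranges of miR-132-3p and miR-138-5p also overlapped, although miR-132-3p lay above miR-138-5p within each NSC EV library. The last 3 overlapped with each other. Among all mature miRNAs ranked by mean CPM, miR-138-5p stood at rank 325 of 686 for astrocyte EVs, against rank 127 of 721 for NSC EVs. miR-218-5p kept close ranks, 103 in astrocyte EVs and 89 in NSC EVs. miR-129-5p ranked 174, 217 and 39 in the astrocyte EV libraries, against 61, 98 and 98 in the NSC EV libraries, and its rank of 74 by mean CPM in astrocyte EVs, against 81 in NSC EVs, rested on replicate 3. These ranks compare miRNAs of similar length, but ligation and amplification differ between sequences, so the order is that of read counts.

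**Figure D2:**
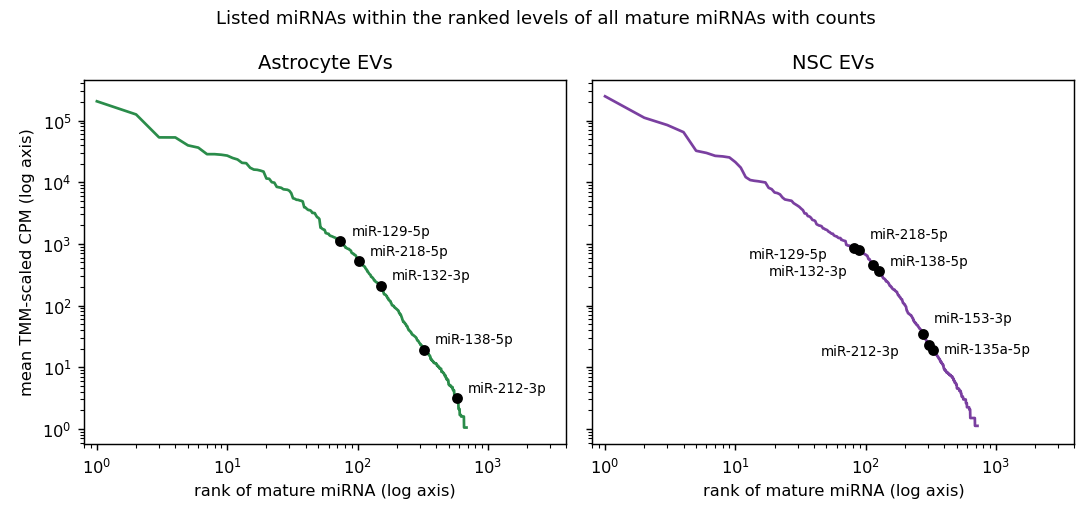
Mean TMM-scaled CPM (log axis) of every mature miRNA with counts against its rank (log axis), astrocyte EVs on the left and NSC EVs on the right, with the listed miRNAs as black points. miR-138-5p sits at rank 325 in astrocyte EVs and at rank 127 in NSC EVs, and miR-153-3p and miR-135a-5p have no point in astrocyte EVs because they had no counts.

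The design asks which miRNAs differ between astrocyte EVs and NSC EVs. Of the 7, 4 passed the low-count filter of the edgeR quasi-likelihood test across mature miRNAs and 3 did not. Among the 4, 1 was called lower in astrocyte EVs at an adjusted p under 0.05 and 0 were called higher. Over all 256 tested miRNAs, 25.8% were called lower and 22.3% higher, 48.0% in either direction, so 1 of 4 is close to the background. The median log2 fold change (astrocyte EVs over NSC EVs) of the 4 was -0.87, beside -0.06 over all tested miRNAs.

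miR-138-5p, which in rat hippocampal neurons limits the size of dendritic spines by repressing the depalmitoylating enzyme APT1, was the miRNA called. It had 2, 4 and 9 counts in astrocyte EVs, against 85, 88 and 65 counts in NSC EVs. On the CPM scale these were 9.50, 20.2 and 28.3 in astrocyte EVs, against 285, 395 and 402 in NSC EVs. The highest astrocyte EV library lay far below the lowest NSC EV library. The log2 fold change was -4.15 (SE 0.58, edgeR adjusted p = 0.00224), a fitted level 17.8-fold lower in astrocyte EVs with a 95% interval of 6.90 to 45.9. It passed the low-count filter only through its NSC EV libraries, so the direction of its call was set by the filter. The call held in all 18 alternative fits, with log2 fold changes between -4.92 and -3.73. These fits draw on the same libraries, and nearly all keep a low-count filter. In the edgeR fit with no such filter, the log2 fold change was -4.11 (edgeR adjusted p = 2.28e-05). Of the 3 astrocyte EV values, 2 rest on fewer than 5 counts, and in replicate 1 the value is under the 3-count floor of 14.3 CPM.

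miR-132-3p and miR-212-3p are made from a shared transcript that CREB induces when neurons fire, and miR-132-3p promotes dendrite growth. miR-132-3p had 28, 55 and 68 counts in astrocyte EVs, against 102, 125 and 76 counts in NSC EVs. Its levels were 133, 277 and 214 CPM in astrocyte EVs, against 342, 562 and 470 CPM in NSC EVs. All astrocyte EV libraries were below all NSC EV libraries, as was true of 36.3% of tested miRNAs. The log2 fold change was -1.14 (SE 0.45), which did not pass the test (edgeR adjusted p = 0.0728). The direction was negative in all 18 alternatives, and 4 of them made it a call: DESeq2 (-1.20, adjusted p = 0.00817), edgeR with median-ratio size factors (-1.21, adjusted p = 0.0433), edgeR without TMM (-1.29, adjusted p = 0.0473) and library sizes from all non-hairpin rows without TMM (-1.92, adjusted p = 0.0297).

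Its neighbour miR-212-3p was near the limit of detection. It had 0, 0 and 3 counts in astrocyte EVs, against 2, 11 and 2 counts in NSC EVs, and was not tested. The groups overlapped, and 1 NSC EV library held most of the counts. Over summed counts, astrocyte EVs were at 0.188 of the NSC EV level, with a counting interval of 0.0349 to 0.664. As a share of the counts of both miRNAs, miR-212-3p was 1.95% in astrocyte EVs (3 of 154 counts) and 4.72% in NSC EVs (15 of 318 counts). The exact 95% intervals, 0.404% to 5.59% for astrocyte EVs, against 2.66% to 7.66% for NSC EVs, overlapped. They pool the libraries of a group and cover counting error only. By library the share was 0%, 0% and 4.23% in astrocyte EVs, against 1.92%, 8.09% and 2.56% in NSC EVs. A difference in the share of this pair was not tested.

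miR-218-5p, which is abundant in motor neurons and elsewhere in the brain and adjusts synaptic strength, had overlapping levels in both EV types. It had 646, 605 and 308 CPM in astrocyte EVs, against 744, 1024 and 613 CPM in NSC EVs. Astrocyte EV replicate 1 lay above NSC EV replicate 3, so the groups overlapped. The log2 fold change was -0.61 (SE 0.43, edgeR adjusted p = 0.269), and 0 of 18 alternatives called it. The fitted level of NSC EVs was 1.53 times that of astrocyte EVs, with a 95% interval of 0.761 to 3.07 that covers both directions.

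**Figure D3:**
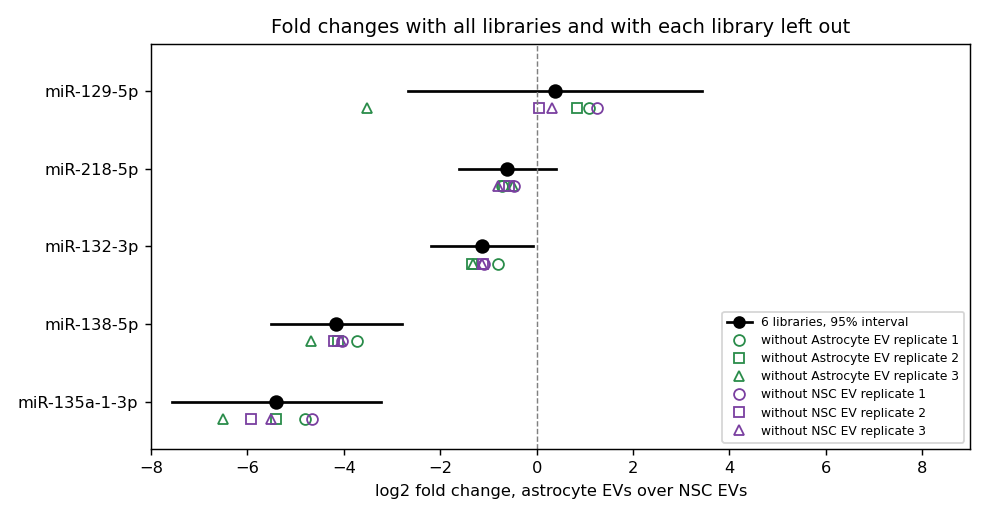
Log2 fold change, astrocyte EVs over NSC EVs, of the 4 tested miRNAs and of miR-135a-1-3p, with the fit of all 6 libraries as a filled point and 95% interval and the fits with each library left out as open markers. Leaving out astrocyte EV replicate 3 puts miR-129-5p at -3.53, against 0.39 with all libraries, while miR-138-5p stays between -4.69 and -3.73.

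miR-129-5p, which in rodent neurons represses the potassium channel Kv1.1 in dendrites, gave opposite pictures in different astrocyte EV libraries. It had 21, 13 and 1007 counts in astrocyte EVs, against 390, 137 and 101 counts in NSC EVs. Its levels were 99.8, 65.5 and 3169 CPM in astrocyte EVs, against 1308, 616 and 625 CPM in NSC EVs. Astrocyte EV replicates 1 and 2 lay below all NSC EV libraries and replicate 3 lay above them all, with a counting interval of 2977 to 3371 CPM. The log2 fold change was 0.39 (SE 1.30, edgeR adjusted p = 0.828). Without astrocyte EV replicate 3 it was -3.53 with an edgeR adjusted p of 0.00265, in a fit that called 32.2% of miRNAs lower. DESeq2 gave no adjusted p for it.

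In astrocyte EV replicate 3, miR-129-5p was 5.22 log2 units above the mean of the other 2 astrocyte EV libraries and ranked 5 of 256 by that difference, while miR-138-5p was 0.83 above, miR-132-3p 0.15 above, and miR-218-5p 1.01 below. The same library held 101933 summed CPM of red blood cell miRNAs, against 19435 and 40976 in the other astrocyte EV libraries, and 6625 summed CPM of mesenchymal miRNAs, against 92031 and 98317. In these sums miR-486a-5p and miR-486b-5p, whose rows hold nearly the same counts, and miR-199a-3p and miR-199b-3p, whose rows are identical, were taken once per pair. It also held 48244 CPM of the brain miRNA miR-9-5p, against 1245 and 1955 in the other astrocyte EV libraries. The part of these in the level of miR-129-5p was not tested.

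**Figure D4:**
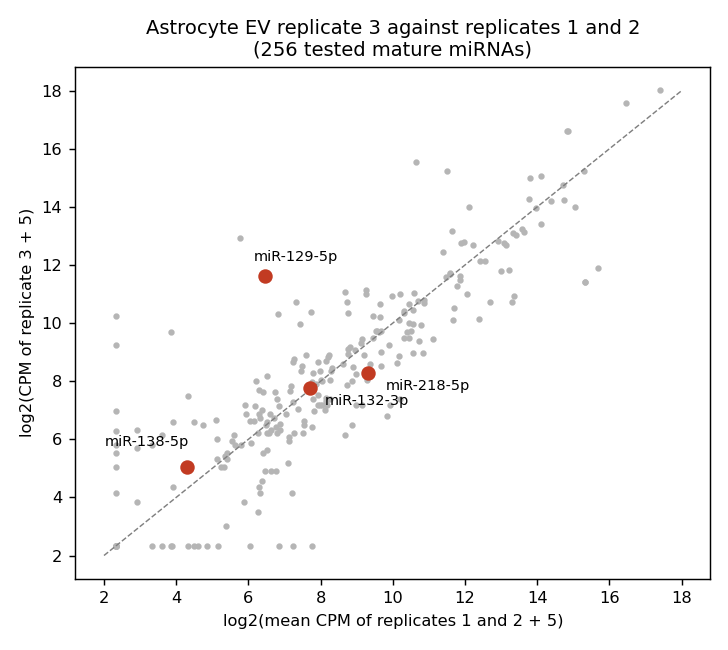
Each point is 1 of 256 tested mature miRNAs, with log2(mean CPM of astrocyte EV replicates 1 and 2 plus 5) on the x axis and log2(CPM of replicate 3 plus 5) on the y axis, and the dashed line marks equal levels. miR-129-5p, in red, lies far above the line at 3169 CPM in replicate 3, while miR-132-3p, miR-138-5p and miR-218-5p lie near it.

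miR-153-3p, which represses proteins of synaptic vesicle release such as Snap25, had 0 counts in all 3 astrocyte EV libraries, against 9, 1 and 11 counts in NSC EVs. The NSC EV levels were 30.2, 4.49 and 68.1 CPM. Its NSC EV level was 7.45-fold that of 3 counts over the astrocyte EV group, and it was below the filter of the test. miR-135a-5p belongs to a family that in mice represses the serotonin transporter and the serotonin receptor Htr1a. It had 0 counts in all 3 astrocyte EV libraries, against 0, 7 and 4 counts in NSC EVs, where its level was 3.90-fold that of 3 astrocyte EV counts. NSC EV replicate 1, without any count, overlapped with astrocyte EVs. In an edgeR fit with no low-count filter, none of the 3 rarest miRNAs was called, with adjusted p of 0.081 for miR-153-3p, 0.253 for miR-135a-5p and 0.446 for miR-212-3p.

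The opposite arms, which the list leaves out, were counted as well. The mir-135a-1 hairpin is printed because its 3p arm, and not its 5p arm, held nearly all of its NSC EV reads. It is written from RefSeq (GRCm38.p6, chr9:106154124-106154213, +) with both annotated arms in capitals, the 5p arm first.
mir-135a-1: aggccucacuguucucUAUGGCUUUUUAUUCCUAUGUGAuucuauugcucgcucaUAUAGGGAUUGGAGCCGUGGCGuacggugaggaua
miR-135a-1-3p: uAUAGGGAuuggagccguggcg
miR-135a-1-3p, at chr9:106154179-106154200 (+), had 0, 1 and 3 counts in astrocyte EVs, against 111, 28 and 37 counts in NSC EVs. These were 0, 5.04 and 9.44 CPM in astrocyte EVs, against 372, 126 and 229 CPM in NSC EVs, with no overlap. Of all tested miRNAs, 36.3% likewise had every astrocyte EV library below every NSC EV library. The log2 fold change was -5.40 (SE 0.92, edgeR adjusted p = 0.00403), and miR-135a-1-3p was called in all 18 alternatives. It passed the filter only through NSC EVs, so the direction of its call was set by the filter. The 3p arm was 94.1% of the 187 counts of both arms over NSC EVs, between 80.0% and 100% by library, although the 5p count also includes reads from the second locus. It was chosen for description after its values were seen.

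**Figure D5:**
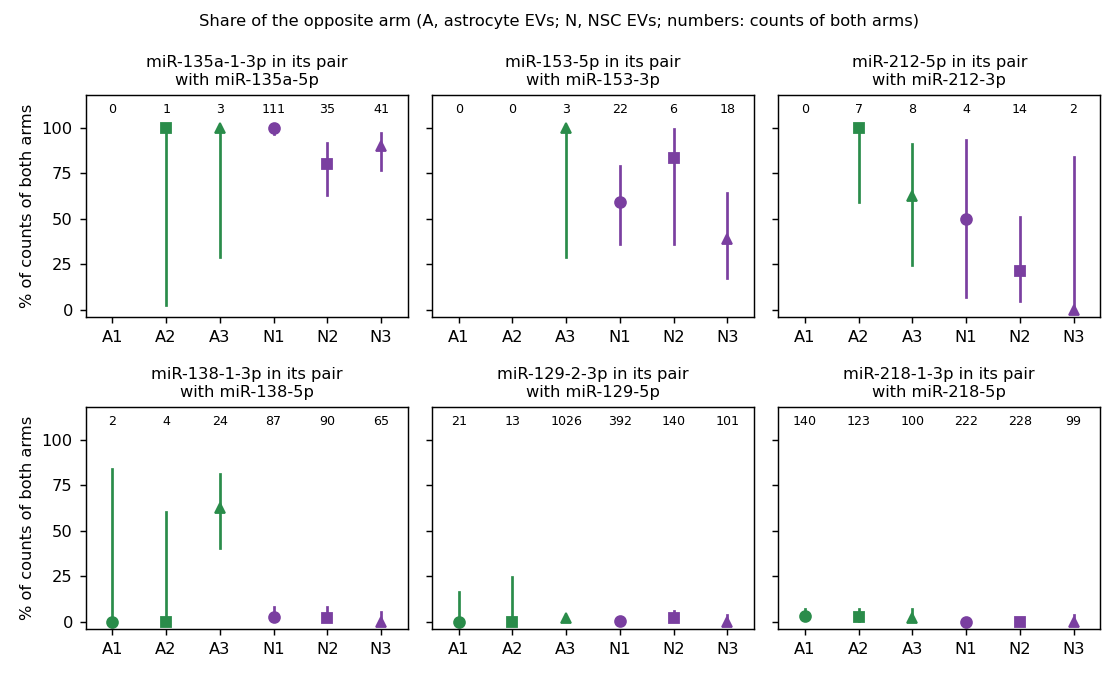
Share (%) of the opposite arm in the counts of both arms for 6 precursors, per library, with exact 95% binomial intervals and the number of counts above each point; A1 to A3 are astrocyte EV and N1 to N3 NSC EV replicates. miR-135a-1-3p makes up 80.0% to 100% in NSC EVs, and miR-218-1-3p is seen in all 3 astrocyte EV libraries at 2.0% to 2.86% and in 0 NSC EV libraries.

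The other opposite arms had few counts. For miR-135a, miR-138 and miR-129 the 5p count also includes reads from a second locus, so their shares are not those of a single precursor. miR-135a-2-3p, from the second miR-135a precursor, had 4, 3 and 0 counts in astrocyte EVs, against 9, 8 and 0 counts in NSC EVs, and the groups overlapped. It was 60.7% of the 28 counts of both arms in NSC EVs, and all 7 counts in astrocyte EVs were of this arm. miR-153-5p had 0, 0 and 3 counts in astrocyte EVs, against 13, 5 and 7 counts in NSC EVs, where it was 54.3% of the 46 counts of both arms. miR-212-5p had 0, 7 and 5 counts in astrocyte EVs, against 2, 3 and 0 counts in NSC EVs. That was 80.0% of 15 counts of both arms in astrocyte EVs (exact 95% interval 51.9% to 95.7%) and 25.0% of 20 counts in NSC EVs (8.66% to 49.1%). The intervals did not overlap, but they cover counting error only and the arms were not tested. miR-138-1-3p was seen almost only in astrocyte EV replicate 3, with 0, 0 and 15 counts in astrocyte EVs, against 2, 2 and 0 counts in NSC EVs. In that library it was 62.5% of 24 counts of both arms (40.6% to 81.2%), against 1.65% over NSC EVs. miR-129-2-3p likewise had 0, 0 and 19 counts in astrocyte EVs, against 2, 3 and 0 counts in NSC EVs, and was 1.85% of both arms in astrocyte EV replicate 3. The paralog miR-135b-5p had 0, 0 and 4 counts in astrocyte EVs, against 7, 19 and 2 counts in NSC EVs. Its opposite arm miR-135b-3p had 0 in every astrocyte EV library, against 9, 1 and 4 counts in NSC EVs. Its NSC EV level was 4.97-fold that of 3 counts over the astrocyte EV group.

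miR-218-1-3p comes from the precursor in Slit2. It had 4, 3 and 2 counts in astrocyte EVs, against 0 in every NSC EV library. Its share of both arms averaged 2.43% ± 0.429 in astrocyte EVs, against 0% in NSC EVs (SD, n = 3 each). The miR-218-5p count also includes reads from the copy in Slit3, so this is not the arm share of the Slit2 precursor alone. The share was higher in 3 of 3 astrocyte EV libraries. The exact two-sided permutation p was 0.1, the smallest that 3 libraries against 3 can give, and 0.4 after Benjamini-Hochberg adjustment over the 4 precursors tested. The astrocyte EV level of miR-218-1-3p was 2.82-fold that of 3 counts over the NSC EV group. Reads of the mir-218-2 hairpin outside its mature row were 0, 0 and 2 in astrocyte EVs, against 13, 10 and 2 in NSC EVs, with an exact permutation p of 0.2 for their share. The remaining 3 precursors with enough counts gave p of 0.4 (miR-132-5p), 0.7 (miR-129-2-3p) and 1 (miR-129-1-3p) in the exact test. Both miR-129 precursors were set against the same miR-129-5p count.

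Other miRNAs of neurons and synapses, a list of 16 of which 15 were in the table, were compared in the same fit. Of 11 tested, 5 fell in astrocyte EVs, 0 rose and 6 did not pass, beside 25.8% of all tested miRNAs that were lower and 22.3% that were higher, with a median log2 fold change of -2.20. Those that fell were miR-124-3p and miR-128-3p, which are neuronal differentiation miRNAs, with miR-137-3p, miR-9-3p and miR-379-5p. Of these, miR-124-3p, at 0 in all 3 astrocyte EV libraries, passed the low-count filter only through NSC EVs, so it could only fall. The list was chosen with earlier results of these data known, so its share beside that of all tested miRNAs is descriptive only. The summed level of the list ran from 3615 to 50523 CPM in astrocyte EVs, the highest again in replicate 3, against 114025 to 155108 CPM in NSC EVs.

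Markers of other cells differed between the groups as well. With such row pairs taken once, 4 of 4 red blood cell miRNAs rose in astrocyte EVs, where 22.3% of all tested miRNAs did. Their summed level was 19435 to 101933 CPM in astrocyte EVs, against 930.0 to 1640 CPM in NSC EVs. miR-451a was at 0 in NSC EVs, and miR-144-3p and miR-144-5p were at or near the floor there. These rows passed the filter only through astrocyte EVs, so the direction of their calls was set by the filter. Of 5 mesenchymal miRNAs, 2 were tested and both rose, at 6625 to 98317 CPM in astrocyte EVs against 860.0 to 1864 CPM in NSC EVs. Both endothelial miRNAs fell, at 69.2 to 191 CPM in astrocyte EVs against 934 to 1730 CPM in NSC EVs. Of these, miR-126a-3p, at the floor in astrocyte EV replicates 1 and 2, passed the filter only through NSC EVs. Of 5 microglial and white blood cell miRNAs, 3 were tested, 2 rose and 1 fell, at 988 to 3214 CPM in astrocyte EVs against 260 to 391 CPM in NSC EVs, where miR-223-3p and miR-142a-3p were at 0. The 1 that fell was miR-150-5p, which was at 0 in every astrocyte EV library and passed the filter only through NSC EVs. The 1 tested of 3 oligodendrocyte miRNAs and the 2 serum or liver miRNAs did not pass the test. The study's methods list fetal bovine serum in the medium of the plated astrocytes and do not describe the NSC cultures. The part of any of these cells, or of serum, in the marker levels and in those of miR-138-5p, miR-132-3p or miR-135a-1-3p was not tested.

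For each tested miRNA, the 3 others with the most similar profile were found by the root mean square difference of log2 CPM centred over the 6 libraries, among 252 candidates. For miR-138-5p these were miR-150-5p (0.381), miR-325-5p (0.416) and miR-216b-5p (0.423). All 3 differed by 0 between astrocyte EV libraries, as rows without counts there do, and passed the filter only through NSC EVs. Their likeness to miR-138-5p, which had few astrocyte EV counts, therefore rests on the floor and on the NSC EV libraries. For miR-132-3p they were miR-26b-5p (0.242), miR-98-5p (0.283) and miR-103-3p (0.338). For miR-218-5p they were miR-6240 (0.307), miR-5121 (0.360) and miR-324-5p (0.366). The profile of miR-129-5p had more distant neighbours, miR-219a-2-3p (0.609), miR-5110 (0.737) and miR-195a-5p (0.882). Outside astrocyte EV replicate 3, miR-219a-2-3p and miR-195a-5p had equal values in astrocyte EVs, as rows without counts do, and miR-5110 was at or near the floor. Their likeness to miR-129-5p therefore rests in part on the floor and on that library.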

How the data were processed

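Small RNA from EVs isolated by serial centrifugation was sequenced. The authors deposited whole-number counts for 61949 annotated rows, without normalization. DESeq, bedtools, SAMtools, Bowtie2, Bowtie, FastQC and cutadapt appear in the submitters' processing notes with the mm10 build and no versions. The treatment of strand and of multi-mapped reads was not given in the sources used here. The deposited tables of group means of scaled counts, fold changes and adjusted p-values were not used.

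Hairpin rows (788) were kept apart from mature rows, since of 72 hairpin and library pairs 59 held exactly the counts of their mature rows. A sequence with 2 loci was usually counted on both hairpins, with an exception at mir-138-2, which held 1 and 2 counts fewer than its mature rows in astrocyte EV replicates 1 and 3. Mature rows were summed to give the library size. Testing was done in edgeR 4.0.16 (R 4.3.3): filterByExpr by group with a minimum of 10 counts and 15 in total, TMM (factors 0.796 to 1.16), glmQLFit, glmQLFTest and Benjamini-Hochberg adjustment over 256 rows, with group as the only term. The common dispersion was 0.338. Replicates differed by more than counting noise in every pair (chi-square per degree of freedom at least 20.7). Arm shares needed 10 counts over both arms in all 6 libraries for an exact permutation test. Counting intervals are exact binomial, at 95%. Comparisons with a group at 0 use 3 counts over that group and take the counts of the other group as exact, so they are not 95% limits. The script was tested on simulated data. The text names the 7 miRNAs, their opposite arms, the listed groups and the 3 nearest profiles. Members and lists were chosen with earlier results of these data known. DESeq2 1.42.0, other size factors, filters, library sizes, a replicate block and leaving out each library or listed markers were alternatives. Python 3.11.15 and scipy 1.17.1 were used for the other steps.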

Additional observations from a re-analysis of the deposited data

How the results depend on the processing

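The number of the 7 miRNAs called was 1 (miR-138-5p). It was 2, with miR-132-3p added, under DESeq2, under edgeR with median-ratio size factors, under edgeR without TMM and, chosen after seeing the data, with libraries sized by every non-hairpin row and no TMM. Leaving out each library gave between 1 and 2, and the 2 came without astrocyte EV replicate 3, where miR-129-5p was added. The log2 fold change of miR-129-5p turned to -0.018 without TMM and to -0.48 with non-hairpin library sizes without TMM, and ran from -3.53 to 1.26 with each library left out. miR-138-5p, miR-218-5p, miR-132-3p and miR-135a-1-3p kept their direction in all 18 alternatives. For miR-138-5p and miR-135a-1-3p, the low-count filter set the direction of the call. Non-hairpin library sizes without TMM moved the median of all tested miRNAs to -0.92 from -0.06, with 96 lower and 32 higher calls in place of 66 and 57. Leaving out NSC EV replicate 2 gave 45 lower and 34 higher. The cause was not tested. With the replicate number as a block, 55 miRNAs were lower and 45 higher, 1 of the 7 was called, and miR-129-5p was at -1.92. Same-numbered libraries had correlations of deviations of 0.0577, 0.126 and 0.0678, so the numbers were not taken as a pairing, although each library correlated best with its own number. Depth limits miR-212-3p, miR-153-3p and miR-135a-5p, which stayed under the filter.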

Other observations

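In astrocyte EV replicate 3, 4 miRNAs stood farther above the other astrocyte EV libraries than miR-129-5p did, and all were named after their values were seen. miR-92b-5p had 0, 0 and 1205 CPM in astrocyte EVs, against 181, 22.5 and 297 CPM in NSC EVs. miR-449a-5p, a miRNA of multiciliated cells, had 19.0, 80.6 and 7852 CPM in astrocyte EVs, against 1029, 1042 and 736 CPM in NSC EVs. miR-488-3p had 0, 0 and 601 CPM in astrocyte EVs, against 939, 530 and 792 CPM in NSC EVs. miR-5110 had 19.0, 0 and 825 CPM in astrocyte EVs, against 124, 62.9 and 111 CPM in NSC EVs. In astrocyte EV replicates 1 and 2, these 4 miRNAs and miR-129-5p lay below their lowest NSC EV level. The 4 were picked as high in replicate 3 against replicates 1 and 2, so low levels in those 2 follow in part from the choice. Over all tested miRNAs, 36.3% lay below every NSC EV library in all 3 astrocyte EV libraries. The share for replicates 1 and 2 alone was not computed.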
